A study of Saccharomyces cerevisiae with 10 samples.

Results

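Budding yeast that had spent 2 h in 1.5 M KCl were compared with unstressed cells by sequencing of poly(A) RNA. The comparison used 4 of the 10 libraries of a time course, all from wild-type BY4741, a MATa laboratory strain that lacks several biosynthetic genes. Cultures in SC medium at 30 °C received KCl at an OD600 of 0.4 to 0.5, and samples were drawn every 30 min. Libraries were chosen by their labels. The unstressed group was sampled at 0 h (replicates a and b), and the stressed group at 2 h (replicates a and b), so each group held 2 libraries. The letters stand for replicate time series, which the series' design text calls independent without saying how the cultures were started, so the p-values rest on the spread between 2 libraries per time, and part of that spread may be technical.

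High external KCl draws water out of a yeast cell. The cell answers through the Hog1 mitogen-activated protein kinase, which switches on the synthesis and retention of glycerol, a small molecule that restores the balance of water, and through the general stress factors Msn2 and Msn4, which bind short promoter sequences called stress response elements (STRE). Growth genes are turned down during such stress, among them those for ribosomal proteins and for ribosome assembly, which depend on the Sfp1, Ifh1 and TORC1 circuits and, in the assembly genes, on promoter sequences named PAC and RRPE.

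Reads on 5989 coding sequences totalled 4654345 and 4676814 in the 0 h libraries of series a and b, and 3372373 and 8016636 in the 2 h libraries. Levels are given as CPM, first series a and then series b. Read counts were scaled to a common effective total, the library total times edgeR's TMM factor. The factors were 0.9248 and 0.9358 at 0 h and 1.1339 and 1.1315 at 2 h. A level is thus a relative value and not a plain share of the reads in a library. An equal share of reads gives a lower level at 2 h than at 0 h. RNA per cell was not determined. Fold changes are log2 values from edgeR's quasi-likelihood test over 5943 genes, two-sided, with Benjamini-Hochberg adjustment, and the standard error (SE) is the one that test implies. A gene was called changed at an adjusted p under 0.05.

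The 4 libraries of 0 h and 2 h matched the strain on the label. LEU2 and MET17, which BY4741 lacks, had 0 reads in all 4 libraries, a limit of 3 reads that corresponds to 0.331 to 0.785 CPM by library, although MET17 overlaps another coding sequence. URA3, also deleted, stood at 1.16 and 0.457 CPM at 0 h and at 1.05 and 0 CPM at 2 h, and HIS3, partly deleted, at 1.6 CPM or less. Of the 0.5 h libraries, compared with 2 h below, series a had more reads on these 4 genes, 0.00334% of its total against 1.2e-05% in series b. The source of those reads was not tested. STE2, the receptor for alpha factor that MATa cells make, was present at 967 and 1014 CPM before stress. Reads on 4 short frames within the 25S ribosomal RNA sequence moved with time, from 0.0556% and 0.0599% of all reads at 0 h to 0.558% and 0.614% at 2 h. The part of this in the results below was not tested, but leaving those frames out before scaling gave 4443 changed genes against 4449 with them.

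After 2 h, 4449 of 5943 genes had changed (74.9%), 2249 higher (37.8%) and 2200 lower (37%), around a median log2 fold change of 0.01 over all genes. The middle of the distribution was narrow, with quartiles at -0.49 and 0.52. At least 2-fold changes were fewer, 781 genes higher (13.1%) and 602 lower (10.1%), and the tails were unequal, since no fall went beyond -3.31 while SIP18 rose by 7.26. The 781 genes rose from 4.22% and 4.19% of all reads to 19.9% and 20%. The 602 genes fell from 40.5% and 40.4% to 17.8% and 17.8%. Their median level at 0 h was 354 CPM, against 71.4 CPM over all genes tested and 20.1 CPM in the 781 genes. The balance of calls depended on the scaling. With library size alone in place of TMM, the median of all genes was 0.29, 3215 genes were called higher and 1501 lower, and 68.2% of the calls were rises against 50.6% here.

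**Figure D1:**
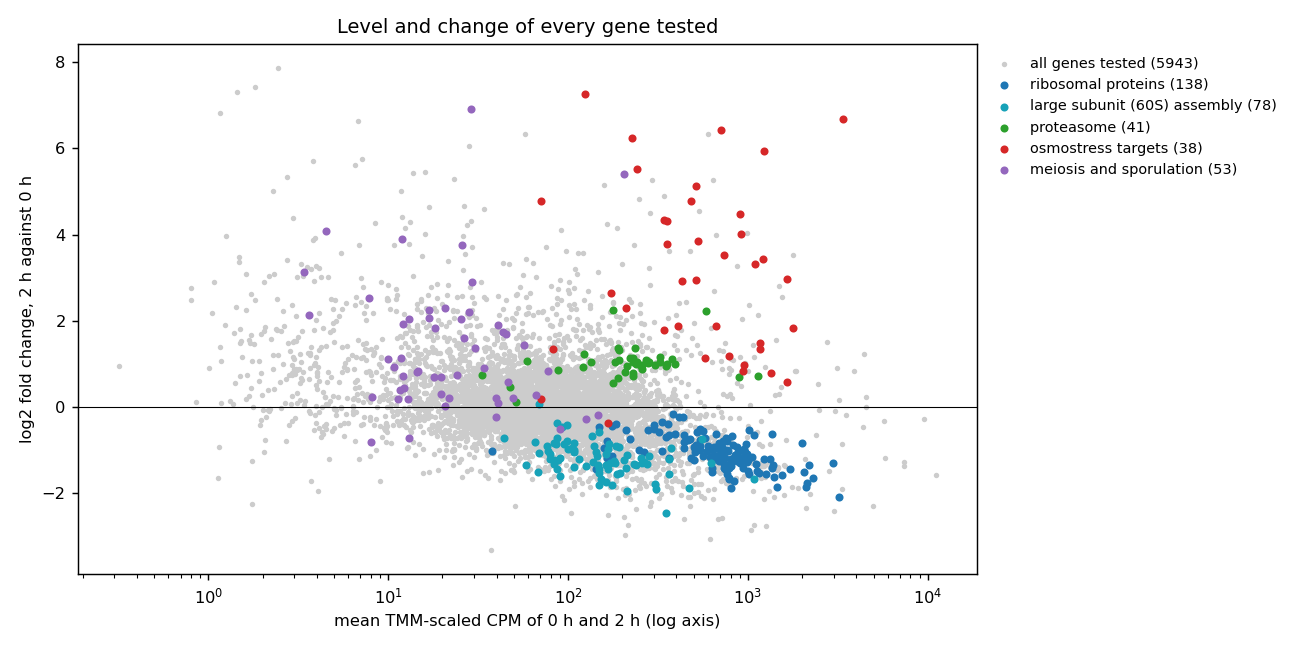
Change of each of 5943 genes after 2 h of KCl against its level. The horizontal axis is the mean CPM of the 0 h and 2 h libraries (log axis) and the vertical axis the log2 fold change at 2 h against 0 h; grey points are all genes and coloured points are members of 5 gene lists. Osmostress targets lie above 0 with a single exception past the test. Members of the ribosomal protein and 60S assembly lists lie below 0 with a single exception (BRR1, 0.07, not called, and not itself a 60S assembly gene).

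The 12 largest rises were taken among called genes whose libraries did not overlap and whose higher mean reached 10 CPM. In order of log2 fold change they were SIP18, PHO92, HSP12, YLR012C, STL1, SPG4, NQM1, MPC3, YMR175W-A, ALD3, OSW1 and DPA10. Over all genes tested the highest value was 7.86, in a gene outside this rule. SIP18, which encodes a hydrophilin that protects dry cells, stood at 2.09 and 1.14 CPM at 0 h and at 225 and 270 CPM at 2 h. Both stressed libraries were far above both controls (log2 fold change 7.26, SE 0.20, adjusted p = 5.5e-17), although the 0 h level rested on 14 reads. With 3306 reads at 2 h the ratio was 159 (95% counting interval, 94.6 to 291). YMR175W-A, an uncharacterized frame next to SIP18 on chromosome XIII, had 7 reads at 0 h and 704 at 2 h, a ratio of 67.7 (32.7 to 169), with a log2 fold change of 6.06. HSP12, which encodes a small membrane-stabilizing stress protein, went from 68.1 and 61.9 CPM to 6443 and 6944 CPM, a 103-fold rise (6.69, SE 0.07, adjusted p = 3.8e-23). Per kilobase of coding length it was the highest of all coding sequences at 2 h, at 20284 CPM per kb, from rank 853 at 0 h.

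STL1, the glycerol-proton symporter, went from 16.7 and 15.5 CPM to 1423 and 1376 CPM, an 86.6-fold rise (6.44, SE 0.08, adjusted p = 3.0e-22). MPC3, a subunit of the mitochondrial pyruvate carrier made when sugar is not fermented, went from 6.27 and 5.48 CPM to 415 and 477 CPM (6.25, SE 0.11). NQM1, a paralog of the transaldolase of the pentose phosphate pathway, rose 80.3-fold from 16.5 and 12.8 CPM to 1178 and 1175 CPM (6.33, SE 0.09). ALD3, a cytosolic aldehyde dehydrogenase induced by stress, rose 61.3-fold from 39.7 and 39.3 CPM to 2417 and 2426 CPM (5.94, SE 0.07). In each of these genes the lowest stressed library exceeded the highest control many times over.

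The remaining 5 of the 12 were nearly silent before stress. PHO92, which encodes a reader of N6-methyladenosine known from meiotic mRNA, had 4 reads at 0 h and 750 at 2 h (ratio 126, 49.1 to 464). SPG4, a gene needed for survival in stationary phase at high temperature, had 12 and 1461 reads (82.0, 46.8 to 159), and OSW1, a spore wall gene, had 2 and 174 (58.6, 16.0 to 487). YLR012C, an uncharacterized frame, had 1 and 173 reads (116, 20.6 to 4626), and DPA10 had 2 and 155 (52.2, 14.2 to 435). For these genes the size of the rise was set by a handful of control reads, so only the counting intervals bound it; the intervals cover counting error alone.

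**Figure D2:**
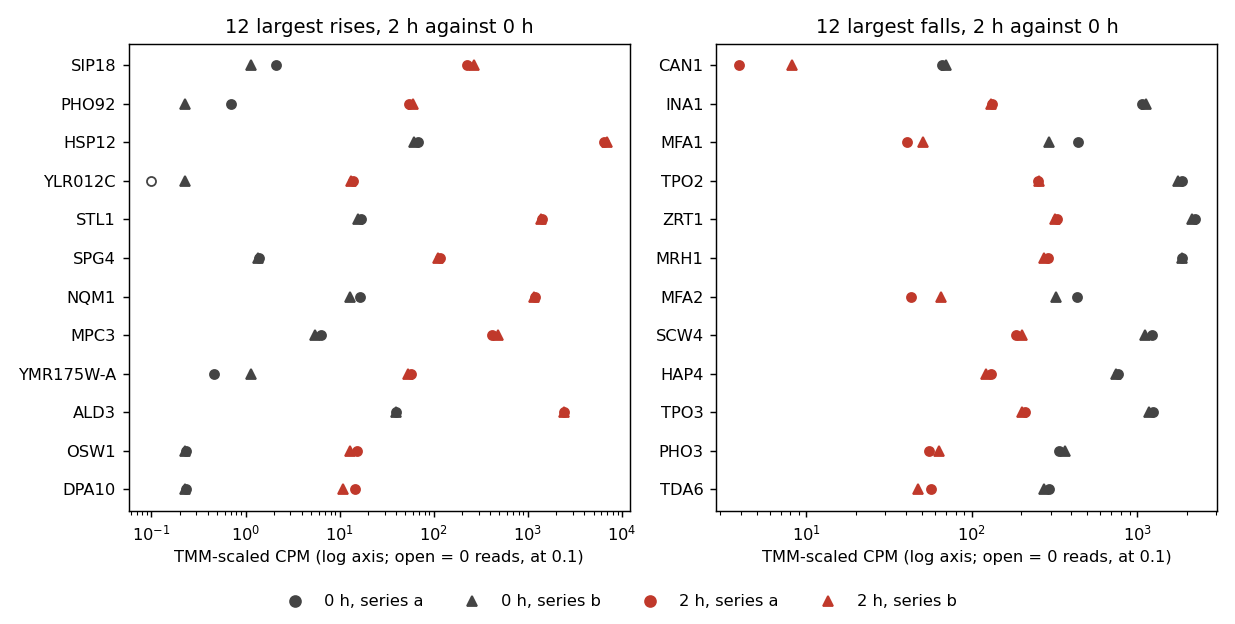
Levels of the 12 largest rises and the 12 largest falls in each of the 4 libraries. The horizontal axis is CPM (log axis); grey symbols are 0 h and red symbols 2 h, circles series a and triangles series b, and an open symbol marks 0 reads drawn at 0.1 CPM. The 0 h and 2 h symbols lie apart in all 24 genes, which the choice of genes required; replicates differ visibly in CAN1 at 2 h (3.92 and 8.16 CPM), in MFA1 and MFA2 at 0 h, and among the rarest genes.

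The 12 largest falls reached from CAN1 to TDA6 and took in several transporters and a transcription factor. CAN1, the arginine permease, stood at 66.0 and 70.1 CPM at 0 h and at 3.92 and 8.16 CPM at 2 h (-3.31, SE 0.36, adjusted p = 7.3e-08). The 2 stressed libraries differed from each other in this gene, and without the 2 h library of series b the fall was -4.11. INA1 fell 8.34-fold from 1069 and 1126 CPM to 133 and 131 CPM (-3.06, SE 0.06, adjusted p = 2.1e-19). The polyamine exporter TPO2 went from 1863 and 1772 CPM to 251 and 254 CPM (-2.85, SE 0.06), and its paralog TPO3 from 1256 and 1184 CPM to 210 and 202 CPM (-2.57, SE 0.06). ZRT1, the high-affinity zinc transporter, went from 2230 and 2151 CPM to 328 and 320 CPM (-2.76, SE 0.06).

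MRH1, an Hsp30-like membrane protein, fell from 1866 and 1867 CPM to 287 and 275 CPM (-2.73). SCW4, a soluble cell wall protein, fell from 1234 and 1116 CPM to 186 and 200 CPM (-2.60), and PHO3, a secreted acid phosphatase, from 339 and 365 CPM to 54.9 and 63.5 CPM (-2.54). HAP4, the activating subunit of the factor that turns on respiratory genes, fell 6.01-fold from 767 and 746 CPM to 131 and 123 CPM (-2.59). TDA6 fell from 292 and 274 CPM to 56.5 and 47.1 CPM (-2.49). Also among the 12, with larger falls than TDA6, were the a-factor genes MFA1 and MFA2, described with the mating genes below. Genes whose control and stressed libraries overlapped could not be named among the 12; over all genes tested, 5103 did not overlap (85.9%).

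Osmostress genes rose almost without exception, in a list that, like the others here, was chosen with earlier results of these data known. Of 38 target genes listed, 37 were higher and 1 was lower (background 37.8% higher). At least 2-fold higher were 32 of them (background 13.1%), and the median log2 fold change was 2.96 against 0.01 over all genes. The medians within the series were 2.93 in a and 2.99 in b, and the list went from 0.872% and 0.844% of reads to 5.33% and 5.48%. The exception was FMP48, a mitochondrial protein kinase gene named after its value was seen, at 193 and 183 CPM before and 145 and 146 CPM after (-0.37, adjusted p = 4.8e-05).

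The stretches below lie upstream of 3 of these genes and are shown because the STRE letters, AGGGG on either strand, stand in each. They were read from the R64 reference genome, from 250 to 101 bases before the coding start, on the strand of the gene, and capitals mark the STRE letters: HSP12 at chrVI:107006-107155, CTT1 at chrVII:654384-654533 and STL1 at chrIV:1507755-1507904, all on the plus strand.
HSP12: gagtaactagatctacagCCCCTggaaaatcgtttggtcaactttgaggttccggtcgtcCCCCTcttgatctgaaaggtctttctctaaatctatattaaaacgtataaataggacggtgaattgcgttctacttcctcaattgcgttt
CTT1: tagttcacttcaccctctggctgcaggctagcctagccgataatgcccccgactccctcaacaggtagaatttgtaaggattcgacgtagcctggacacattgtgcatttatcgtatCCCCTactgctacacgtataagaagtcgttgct
STL1: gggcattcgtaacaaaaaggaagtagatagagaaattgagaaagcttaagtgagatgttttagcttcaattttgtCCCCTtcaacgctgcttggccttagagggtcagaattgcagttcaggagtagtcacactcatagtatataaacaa
The first base of the capitals lay 232 and 190 bases before the start of HSP12, 133 before CTT1 and 175 before STL1. A match of this kind is a description, not a site of binding or a cause.

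Over the window from 250 bases before to 50 after the coding start, on either strand, AGGGG stood in 21.6% of 5984 promoters. It stood in 34.1% of genes at least 2-fold higher (266 of 781), in 13.4% of those at least 2-fold lower (80 of 599), and in 55.3% of the osmostress list (21 of 38). SIP18, the largest rise, held no AGGGG in this window. The half-site TGACGT of the factor Sko1 stood in 9.48% of the genes at least 2-fold higher, in 8.01% of those at least 2-fold lower and in 7.55% of all promoters.

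Genes for both steps of glycerol synthesis rose, though not every paralog. GPD1, the glycerol-3-phosphate dehydrogenase that commits carbon to glycerol, went from 378 and 373 CPM to 2862 and 3016 CPM, a 7.82-fold rise (2.97, SE 0.05, adjusted p = 2.3e-20). GPP2, the phosphatase of the next step, went from 195 and 202 CPM to 1949 and 2029 CPM (3.33, SE 0.05). DAK1, a dihydroxyacetone kinase on the route of glycerol breakdown, went from 122 and 113 CPM to 1349 and 1376 CPM (3.54, SE 0.06). In all 3 the stressed libraries stood several times above the controls. Over the list for synthesis, uptake and breakdown of glycerol, 13 of 17 genes were higher (76.5%, against 37.8% of all genes) and 3 lower (17.6%, against 37%), with a median of 1.14. GPD2, the paralog of GPD1 that serves redox balance rather than osmotic stress and is named here after its value was seen, fell from 394 and 379 CPM to 162 and 172 CPM (-1.20, adjusted p = 6.2e-14).

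For the signalling pathway itself the counts were near those of all genes. Of 29 genes of the HOG pathway, 12 were higher (41.4%, against 37.8% overall) and 10 lower (34.5%, against 37%), with a median of 0.09. HOG1, the kinase, went from 247 and 239 CPM to 190 and 185 CPM (-0.38, SE 0.06, adjusted p = 5.5e-06), a fall that was not called with library size alone (-0.10, adjusted p = 0.12). The largest changes in the list were RCK1, a kinase of the oxidative stress response, at 11.8 and 11.9 CPM before and 50.7 and 48.8 CPM after (2.06), and SMP1, a transcription factor downstream of Hog1 (1.23). The type 2C phosphatase PTC2 fell from 270 and 245 CPM to 123 and 125 CPM (-1.05), and MSB2, an osmosensing mucin, from 257 and 246 CPM to 143 and 136 CPM (-0.86).

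Most genes that protect proteins and membranes rose, where 37.8% of all genes were higher and 37% lower. Of 20 hydrophilin and small stress protein genes, many of them also in the osmostress list above, 19 were higher and 1 lower (median 3.60). The list went from 0.226% and 0.206% of reads to 1.98% and 2.12%. GRE1, the hydrophilin most like Sip18, went from 10.7 and 9.83 CPM to 460 and 484 CPM (5.53, SE 0.11, adjusted p = 3.9e-19). Among 33 heat shock protein and chaperone genes, 31 were higher and 2 lower (median 1.26), from 2.39% and 2.35% to 6.70% and 6.58% of reads. HSP26, a small heat shock protein that binds unfolded proteins, went from 118 and 95.7 CPM to 1739 and 1719 CPM (4.02, SE 0.08), and SSA3, a stress-induced Hsp70, from 78.5 and 76.3 CPM to 1268 and 1217 CPM (4.0, SE 0.06). The falling members, both named after their values were seen, were HSP30, a plasma membrane protein that restrains the proton pump, at 1514 and 1463 CPM before and 656 and 632 CPM after (-1.21), and the secreted wall protein gene HSP150 (-1.21).

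Of 36 genes of defence against peroxide and redox stress, 27 were higher (75%, against 37.8% of all genes) and 2 lower (5.56%, against 37%), with a median of 0.92. CTT1, the cytosolic catalase, went from 32.8 and 34.7 CPM to 939 and 913 CPM, a 27.4-fold rise (4.78, SE 0.07, adjusted p = 8.4e-21). PRX1, the mitochondrial peroxiredoxin, went from 33.0 and 39.3 CPM to 347 and 375 CPM (3.32, SE 0.08), and GRE3, an aldose reductase, from 119 and 115 CPM to 918 and 901 CPM (2.96, SE 0.07). For trehalose and glycogen, reserve sugars of which trehalose also guards proteins, 20 of 24 genes were higher and 1 lower (median 0.91). The largest rise there was GIP2, a targeting subunit of glycogen phosphatase, at 26.3 and 24.9 CPM before and 140 and 154 CPM after (2.54, SE 0.09). Enzymes of breakdown rose too, GDB1, which debranches glycogen (2.39), and ATH1, the acid trehalase (2.37).

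**Figure D3:**
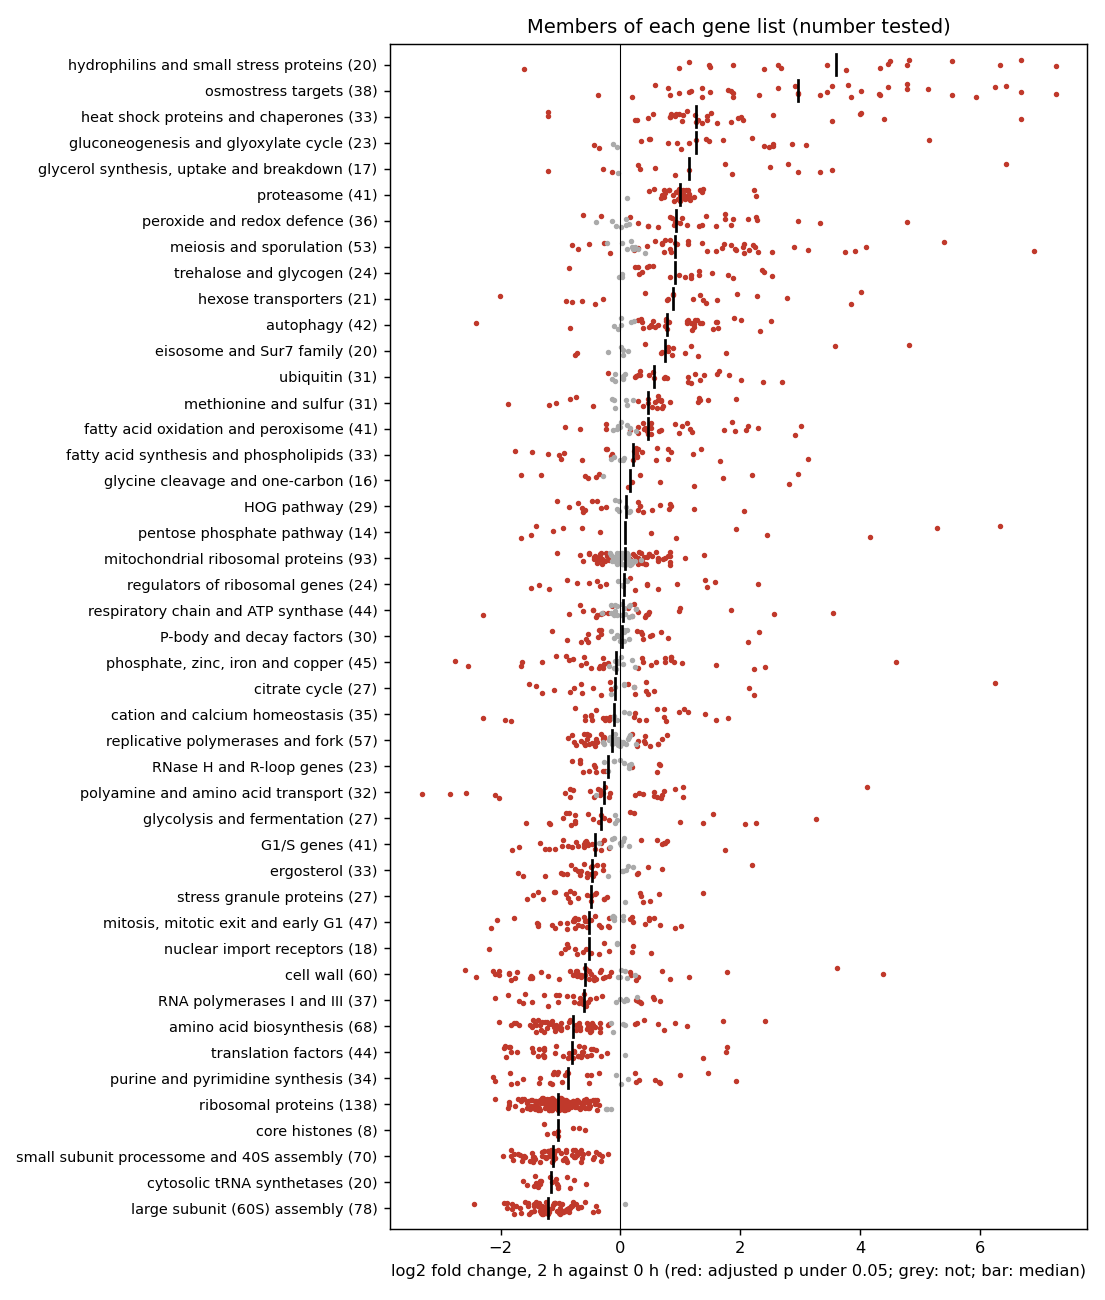
Log2 fold change at 2 h against 0 h of the members of each gene list, 1 list per line. The horizontal axis is the log2 fold change; red points passed the test at an adjusted p under 0.05, grey points did not, and the black bar is the median of the list. Hydrophilins (median 3.60) and osmostress targets (2.96) stand farthest to the right, and 60S assembly (-1.21) and tRNA synthetases (-1.16) farthest to the left among the lists drawn.

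In carbon metabolism several pairs of paralogs moved in opposite directions. Of 14 pentose phosphate genes, 7 were higher (50%, against 37.8% of all genes) and 7 lower (50%, against 37%), with a median of 0.08. Beside NQM1, TKL2, the minor transketolase, went from 34.2 and 30.4 CPM to 1242 and 1264 CPM (5.28, SE 0.08), and GND2, the minor 6-phosphogluconate dehydrogenase, from 19.5 and 20.1 CPM to 343 and 363 CPM (4.16, SE 0.08). The major forms, named after their values were seen, went the other way. GND1 fell from 788 and 770 CPM to 282 and 273 CPM (-1.49), TKL1 from 998 and 973 CPM to 371 and 373 CPM (-1.41), and TAL1 was lower too (-0.34).

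In glycolysis and fermentation, 8 of 27 genes were higher (29.6%, against 37.8% of all genes) and 16 lower (59.3%, against 37%), with a median of -0.33. PDC1, the main pyruvate decarboxylase and among the most abundant mRNAs of growing yeast, fell from 17018 and 16249 CPM to 5578 and 5587 CPM (-1.58, SE 0.04, adjusted p = 6.1e-18). Its minor paralog PDC6 rose from 8.60 and 7.08 CPM to 39.0 and 37.1 CPM (2.27, SE 0.16), and HXK1, a hexokinase used when glucose is short, from 163 and 166 CPM to 1603 and 1566 CPM (3.27, SE 0.06). HXK2, the hexokinase of glucose-grown cells and named after its value was seen, fell from 1143 and 1127 CPM to 507 and 499 CPM (-1.18). GPM2, a paralog of phosphoglycerate mutase, rose (2.08, SE 0.12).

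In the hexose transporter list 15 of 21 genes were higher (71.4%, against 37.8% of all genes) and 6 lower (28.6%, against 37%), with a median of 0.89. The list also holds the glucose sensors SNF3 and RGT2 and the regulators MTH1 and STD1. HXT5, a transporter of slow-growing cells, went from 63.7 and 73.3 CPM to 998 and 986 CPM (3.85, SE 0.07), and HXT10 from 2.32 and 1.37 CPM to 31.6 and 28.9 CPM (4.01, SE 0.25). HXT3, the low-affinity transporter of glucose-rich cells and named after its value was seen, fell from 3486 and 3592 CPM to 873 and 886 CPM (-2.01). Of 23 genes for gluconeogenesis and the glyoxylate cycle, 19 were higher and 2 lower (median 1.26). SIP4, an activator of gluconeogenic genes, went from 9.29 and 8.0 CPM to 319 and 298 CPM (5.15, SE 0.10), and ACS1, the acetyl-CoA synthetase repressed by glucose, from 24.9 and 21.7 CPM to 208 and 193 CPM (3.10, SE 0.09).

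In the list for fatty acid oxidation and peroxisomes 28 of 41 genes were higher and 4 lower (median 0.46), with POT1, the thiolase, at 14.9 and 14.4 CPM before and 112 and 123 CPM after (3.02, SE 0.12). In the citrate cycle list 10 of 27 were higher (37%) and 12 lower (44.4%), near the 37.8% and 37% of all genes (median -0.08, and 0.20 with library size alone). PYC1, which feeds the cycle from pyruvate, rose from 146 and 148 CPM to 639 and 659 CPM (2.14), and ACO1, the aconitase, fell from 1086 and 1165 CPM to 396 and 386 CPM (-1.53). Of 44 respiratory chain and ATP synthase genes 14 were higher (31.8%) and 12 lower (27.3%), both shares below those of all genes (median 0.04). CYC7, the minor form of cytochrome c, rose from 3.95 and 4.57 CPM to 47.1 and 51.9 CPM (3.55, SE 0.18), and NDE1, the external NADH dehydrogenase, fell from 762 and 815 CPM to 161 and 163 CPM (-2.28, SE 0.06).

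Proteasome genes, for the main protein-degrading particle of the cell, rose almost without exception. All but 1 of the 41 were higher and 0 lower, 20 at least 2-fold, with a median of 1.00. Among all genes 37.8% were higher, 13.1% at least 2-fold, and 37% lower. The share of the list went from 0.660% and 0.675% of reads to 1.65% and 1.65%. HSM3, an assembly chaperone named after its value was seen, was the gene not called (0.12, adjusted p = 0.28). RPN4, the transcription factor that drives proteasome genes, went from 198 and 215 CPM to 991 and 947 CPM (2.23, SE 0.06, adjusted p = 2.8e-17). ECM29, which tethers the core to the regulatory particle, went from 54.6 and 69.2 CPM to 287 and 302 CPM (2.26, SE 0.08). The catalytic subunit gene PRE3 went from 107 and 104 CPM to 278 and 272 CPM (1.38, SE 0.06), and RPN7, of the regulatory lid, from 128 and 135 CPM to 340 and 335 CPM (1.36, SE 0.06).

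Rpn4 binds the sequence PACE, GGTGGCAAA (TTTGCCACC on the other strand). It stood in 28 of 41 promoters of the list (68.3%), against 71 of 5984 overall (1.19%), 32 of the 781 genes at least 2-fold higher (4.10%) and 1 of 599 at least 2-fold lower (0.167%). RPN4 itself held none in the window. Stretches of 3 genes are shown with PACE in capitals, again from R64, 250 to 101 bases before the coding start, on the strand of the gene: RPN7 at chrXVI:742204-742353 and PRE3 at chrX:434913-435062 on the plus strand, and UBI4, the polyubiquitin gene, at chrXII:65308-65457 on the minus strand.
RPN7: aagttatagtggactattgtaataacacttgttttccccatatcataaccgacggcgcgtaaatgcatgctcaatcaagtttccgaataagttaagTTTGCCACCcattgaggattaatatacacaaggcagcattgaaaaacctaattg
PRE3: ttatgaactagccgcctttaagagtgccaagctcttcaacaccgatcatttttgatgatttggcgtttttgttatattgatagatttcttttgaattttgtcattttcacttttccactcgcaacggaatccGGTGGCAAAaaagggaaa
UBI4: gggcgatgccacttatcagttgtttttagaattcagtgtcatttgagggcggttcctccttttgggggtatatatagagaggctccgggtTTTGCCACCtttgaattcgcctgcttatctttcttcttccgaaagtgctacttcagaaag
The first base of PACE lay 154, 118 and 160 bases before the respective start.

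UBI4 went from 180 and 166 CPM to 1148 and 1102 CPM (2.70, SE 0.07, adjusted p = 1.1e-17), and of 31 ubiquitin genes 23 were higher and 1 lower (median 0.55). UBP15, a deubiquitinating enzyme, rose from 25.3 and 29.9 CPM to 155 and 138 CPM (2.38, SE 0.09). For autophagy, by which cells digest their own contents, 34 of 42 genes were higher and 2 lower (median 0.77). The shares over all genes were 37.8% higher and 37% lower. ATG1, the kinase that starts it, went from 16.96 and 23.5 CPM to 99.9 and 104 CPM (2.33, SE 0.12), and ATG39, a receptor for digestion of the nuclear envelope, from 10.5 and 10.7 CPM to 57.5 and 61.9 CPM (2.50, SE 0.13). Against this, UTH1, a wall protein once tied to autophagy of mitochondria, fell from 5265 and 4847 CPM to 907 and 986 CPM (-2.42, SE 0.05).

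**Figure D4:**
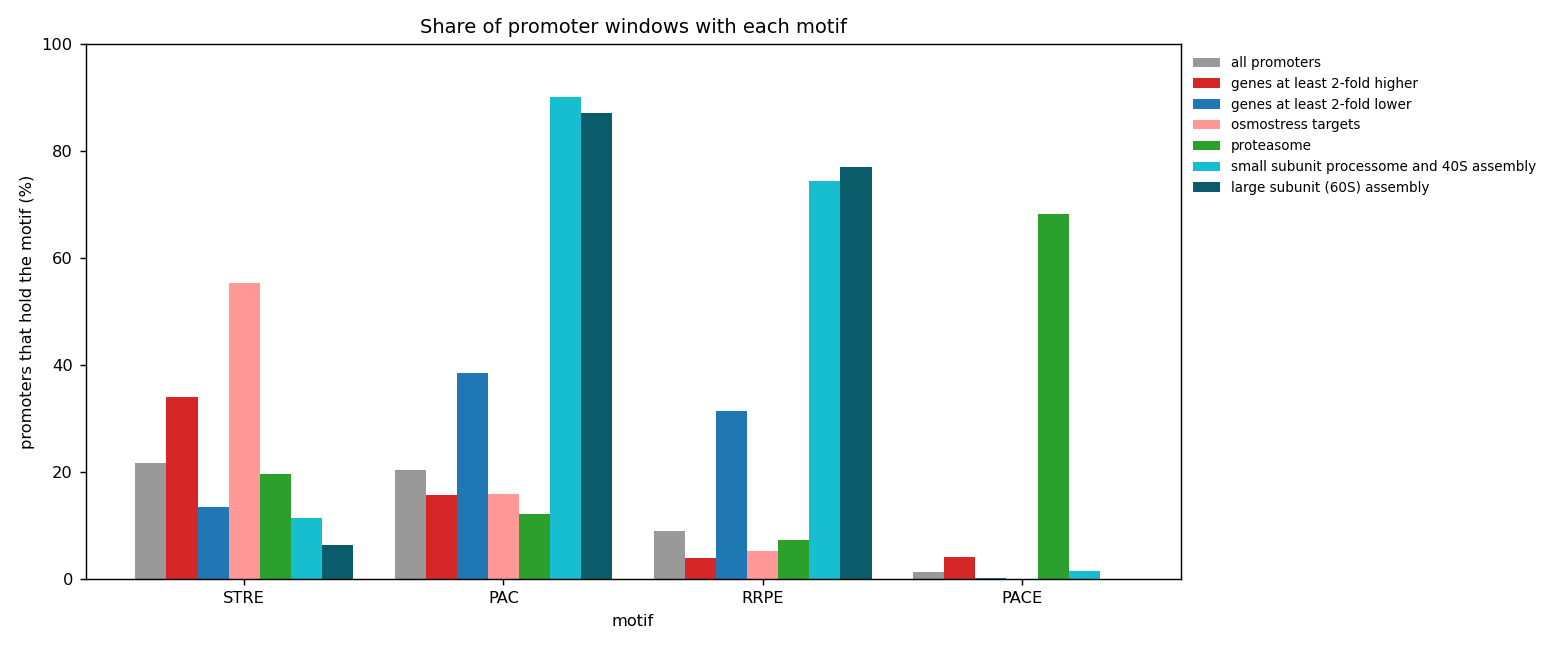
Share of promoters that hold each of 4 sequences, in all promoters, in the genes at least 2-fold higher or lower at 2 h, and in 4 gene lists. The vertical axis is the percent of promoters (250 bases before to 50 after the coding start, either strand) with the letters. PAC and RRPE stand in most ribosome assembly promoters (90% and 74.3% for 40S assembly), PACE in 68.3% of proteasome promoters, and STRE in 55.3% of the osmostress list.

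Ribosome genes fell nearly as a block. Of 138 genes with names of cytosolic ribosomal proteins, 135 were lower and 0 higher (background 37% lower). At least 2-fold lower were 76 (background 10.1%), and the median was -1.03 with a range of -2.09 to -0.15. One of these names, RPP1, belongs to a subunit of RNase P and MRP (-1.0, adjusted p = 1.6e-06), and without it 134 of 137 were lower (median -1.04). The share of reads of the 138 went from 14.5% and 13.8% to 7.52% and 7.78%. Most have a near-identical paralog, and reads may have been split between such pairs, so the value of a single paralog is uncertain. RPP0, the stalk protein and a single-copy gene, fell from 5254 and 5104 CPM to 1221 and 1220 CPM (-2.09, SE 0.04, adjusted p = 9.3e-19). RPS2, also single-copy, fell from 3431 and 3174 CPM to 902 and 924 CPM (-1.85, SE 0.05). The 3 genes not called, named after their values were seen, were RPL34A (-0.15), RPS30A (-0.22) and RPL39, whose 0 h libraries at 590 and 358 CPM spanned its 2 h values of 378 and 425 CPM (-0.23, adjusted p = 0.36).

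The medians of the list within a series differed, -1.17 in a and -0.96 in b. Among 179 coding sequences of at most 300 bases with a mean of at least 10 CPM at 0 h, series a and b differed. The median log2 difference, a minus b, was 0.0863 at 0 h and -0.191 at 2 h. The part of this difference in the spread of short genes such as RPL39 was not tested. Of 93 genes with names of mitochondrial ribosomal proteins or of proteins found with them, 32 were higher (34.4%, against 37.8% of all genes) and 24 lower (25.8%, against 37%), with a median of 0.08. Without the MRX genes, MRP8 and YMR31, 20 genes in all and mostly not ribosomal proteins, 22 of 73 were higher and 20 lower (median 0.02). Of 24 regulators of ribosomal genes, 10 were higher (41.7%) and 9 lower (37.5%), again near the shares of all genes (median 0.06). Among these regulators, RAP1, which binds ribosomal protein promoters, fell from 224 and 215 CPM to 82.4 and 76.1 CPM (-1.48, SE 0.06), and the stress-induced repressor XBP1 rose from 29.04 and 26.05 CPM to 132 and 139 CPM (2.30, SE 0.09).

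Ribosome assembly fell with the ribosomal proteins. All 70 genes of the small subunit processome and 40S assembly were lower (median -1.12, 41 at least 2-fold), as were 77 of 78 for the large subunit (median -1.21, 54 at least 2-fold). Among all genes 37% were lower, 10.1% at least 2-fold, and 37.8% higher. RRP5, needed for cleavage of the precursor of both subunits, fell from 595 and 613 CPM to 157 and 153 CPM (-1.96, SE 0.06, adjusted p = 7.2e-17). DBP2, an RNA helicase that also acts at R-loops, fell from 592 and 585 CPM to 109 and 108 CPM (-2.44, SE 0.06), the largest fall of the 60S list. NOG1, a GTPase of early 60S particles, fell from 467 and 500 CPM to 134 and 128 CPM (-1.89, SE 0.06). The member not called, named after its value was seen, was BRR1 (0.07, adjusted p = 0.41). It is a gene of spliceosomal snRNP assembly that stood in the list, not a gene of 60S assembly. RNA polymerases I and III, which transcribe ribosomal and transfer RNA, had 24 of 37 subunit and factor genes lower and 7 higher (median -0.60), with RPA135, the second subunit of polymerase I, at 761 and 737 CPM before and 178 and 176 CPM after (-2.08, SE 0.06).

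The assembly genes were searched for PAC, the letters GATGAG on either strand, and for RRPE, AAAATTTT, which is its own reverse complement. PAC stood in 63 of 70 small subunit promoters (90%) and in 68 of 78 large subunit promoters (87.2%), against 20.4% of all 5984. RRPE stood in 52 of 70 (74.3%) and 60 of 78 (76.9%), against 9.01% overall. Ribosomal protein promoters were unlike them, with PAC in 11.0% and RRPE in 6.62% of 136. Stretches of 3 genes are given with both motifs in capitals, from R64, 250 to 101 bases before the coding start, on the strand of the gene: RRP5 at chrXIII:731224-731373 on the minus strand, and NOG1 at chrXVI:370728-370877 and DBP2 at chrXIV:413389-413538 on the plus strand.
RRP5: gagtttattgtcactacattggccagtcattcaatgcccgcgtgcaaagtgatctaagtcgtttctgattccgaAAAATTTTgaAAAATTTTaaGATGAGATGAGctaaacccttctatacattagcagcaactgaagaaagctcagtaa
NOG1: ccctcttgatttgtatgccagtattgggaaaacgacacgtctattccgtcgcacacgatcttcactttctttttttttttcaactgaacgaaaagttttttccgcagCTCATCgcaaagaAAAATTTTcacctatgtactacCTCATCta
DBP2: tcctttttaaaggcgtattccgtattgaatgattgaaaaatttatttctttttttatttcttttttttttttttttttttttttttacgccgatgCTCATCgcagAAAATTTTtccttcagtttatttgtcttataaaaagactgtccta
In RRP5 the copies of GATGAG overlap by 1 base, and in NOG1 PAC stood on both sides of RRPE.

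The machinery of translation fell as well, where 37% of all genes were lower and 37.8% higher. Of 44 translation factor genes 40 were lower and 3 higher (median -0.81), and all 20 cytosolic tRNA synthetase genes were lower (median -1.16). YEF3, the fungal elongation factor 3, fell from 5224 and 5249 CPM to 1409 and 1384 CPM (-1.91, SE 0.04, adjusted p = 2.0e-18). NIP1, a subunit of initiation factor 3, fell from 899 and 989 CPM to 246 and 251 CPM (-1.92, SE 0.06), and VAS1, the valyl-tRNA synthetase, from 1275 and 1304 CPM to 422 and 412 CPM (-1.63, SE 0.05). The 3 rising factors were the helicase DED1, described below, and 2 rarer paralogs named after their values were seen, DBP1 (1.78), a paralog of DED1, and HEF3 (1.76), a paralog of YEF3.

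Most genes for the synthesis of amino acids and nucleotides fell, where 37% of all genes were lower and 37.8% higher. Of 68 amino acid biosynthesis genes 55 were lower and 9 higher (median -0.79), and of 34 genes for purines and pyrimidines 22 were lower and 9 higher (median -0.88). ARG1, of arginine synthesis, fell from 691 and 670 CPM to 194 and 191 CPM (-1.82, SE 0.06), LEU9 from 262.5 and 258.9 CPM to 63.55 and 63.95 CPM (-2.03, SE 0.06), and URA1, of pyrimidine synthesis, from 1014 and 1067 CPM to 237.2 and 239.5 CPM (-2.13, SE 0.06). ARO9, an aromatic aminotransferase that also breaks amino acids down, rose from 126 and 134 CPM to 680 and 709 CPM (2.42, SE 0.06).

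Some nitrogen and sulfur genes rose against that trend. The glycine cleavage genes GCV1 and GCV2 went from 22.3 and 17.4 CPM to 145 and 137 CPM (2.82, SE 0.10) and from 18.6 and 22.4 CPM to 162 and 157 CPM (2.96, SE 0.09). The list of glycine cleavage and one-carbon metabolism held 16 genes. Of these, 9 were higher (56.2%, against 37.8% of all genes) and 6 lower (37.5%, against 37%), with a median of 0.16. Of 31 methionine and sulfur genes, 19 were higher and 6 lower (median 0.47), with SAM2, an S-adenosylmethionine synthetase, at 61.8 and 59.6 CPM before and 239.0 and 225.5 CPM after (1.93, SE 0.07). Of 18 nuclear transport genes, 13 were lower and 3 higher (median -0.53). Beside import receptors this list holds export receptors such as CRM1 and genes of other transport factors such as GSP1. KAP123, which brings ribosomal proteins into the nucleus, fell from 469 and 478 CPM to 99.6 and 106 CPM (-2.19, SE 0.06).

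Cell cycle genes of several stages were lower, where 37% of all genes were lower and 37.8% higher. Of 41 G1/S genes 25 were lower and 7 higher (median -0.42), and of 47 genes of mitosis, mitotic exit and early G1, 31 were lower and 10 higher (median -0.52). RNR1, the large subunit of ribonucleotide reductase, fell from 466 and 488 CPM to 147 and 129 CPM (-1.81, SE 0.06), while its DNA-damage-induced paralog RNR3 rose from 10.2 and 12.1 CPM to 43.1 and 34.1 CPM (1.74, SE 0.17). CLB1, a mitotic cyclin, fell from 151 and 157 CPM to 36.4 and 33.4 CPM (-2.16, SE 0.08). DSE2, which daughter cells use to part from the mother, fell from 882 and 877 CPM to 222 and 202 CPM (-2.06, SE 0.07).

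All 8 core histone genes were lower (median -1.04). HTA1, a histone H2A gene, fell from 1068 and 1022 CPM to 439 and 452 CPM (-1.23, SE 0.05, adjusted p = 8.1e-14), and HTB2 from 659 and 635 CPM to 258 and 273 CPM (-1.28, SE 0.06). Histone mRNA in yeast is polyadenylated, but the genes form near-identical pairs, so reads may have been shared within a pair. In the replication fork list 24 of 57 were lower (42.1%, against 37% of all genes) and 11 higher (19.3%, against 37.8%), with a median of -0.13 that was 0.15 with library size alone. POL2, of the leading strand polymerase, fell from 286 and 321 CPM to 167 and 165 CPM (-0.87, SE 0.07), and RFA1, of the single-strand binding protein, rose from 75.04 and 78.8 CPM to 129 and 133 CPM (0.77, SE 0.07).

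The series title names Pol32 and RNase H1, which it ties to stress granules and R-loops, the RNA-DNA hybrids left by transcription. RNH1, the gene of RNase H1, fell from 69.2 and 68.3 CPM to 43.1 and 43.1 CPM (-0.67, SE 0.09, adjusted p = 8.7e-07). POL32, a small subunit of DNA polymerase delta, went from 29.0 and 33.4 CPM to 24.3 and 22.9 CPM (-0.41, SE 0.12, adjusted p = 0.0051). That call was lost with library size alone (-0.13, adjusted p = 0.34), without the 0 h library of series b (-0.31, adjusted p = 0.075) and without the 2 h library of series b (-0.36, adjusted p = 0.072).

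Of the 3 subunits of RNase H2, the other RNase H enzyme, RNH203 fell from 19.3 and 16.2 CPM to 8.89 and 10.7 CPM (-0.81, SE 0.18, adjusted p = 4.4e-04). RNH201, the catalytic subunit, stood at 28.8 and 32.2 CPM before and 24.1 and 26.0 CPM after (-0.27, SE 0.15, adjusted p = 0.12), and RNH202 at 35.5 and 40.2 CPM before and 30.6 and 33.8 CPM after (-0.21, SE 0.11, adjusted p = 0.089). Neither change passed the test. Over 23 RNase H and R-loop genes, 10 were lower (43.5%, against 37% of all genes) and 4 higher (17.4%, against 37.8%), with a median of -0.21 that was 0.07 with library size alone. SGS1, a RecQ helicase of that list, rose from 85.3 and 82.5 CPM to 135 and 132 CPM (0.67, SE 0.07).

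Genes for proteins that gather in stress granules were lower in 20 of 27 cases (74.1%, against 37% of all genes). They were higher in 6 (22.2%, against 37.8%), with a median of -0.49. GIS2, a translational activator found in granules, fell from 481 and 475 CPM to 172 and 156 CPM (-1.56, SE 0.06). TIF1 and TIF2, which encode the same protein, initiation factor 4A, and may share reads, fell (-1.38 and -1.45). DED1, the helicase of initiation, went the other way, from 100 and 96.4 CPM to 260 and 254 CPM (1.38, SE 0.06, adjusted p = 4.4e-14). In the P-body and decay list 10 of 30 were higher and 10 lower (33.3% each, below the shares of all genes; median 0.03, and -0.01 without the 0 h library of series a), with the stress-induced decapping scavenger gene DCS1 and its paralog DCS2 rising (2.13 and 2.31).

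At the plasma membrane, the proton pump gene PMA1 fell from 8256 and 8286 CPM to 1703 and 1690 CPM (-2.29, SE 0.04, adjusted p = 9.6e-20), and PMP1 and PMP2, small regulators of that pump, fell with it (-1.82 and -1.93). ENA1, a sodium exporter, rose from 149 and 155 CPM to 532 and 521 CPM (1.79, SE 0.06, adjusted p = 4.0e-16), although it lies in a tandem array with near-identical ENA2 and ENA5, whose reads cannot be told apart with certainty. Of 35 cation and calcium genes 14 were higher (40%, against 37.8% of all genes) and 16 lower (45.7%, against 37%), with a median of -0.11 that was 0.17 with library size alone. The list of polyamine and amino acid transport also holds sensor and regulator genes such as SSY1 and STP1. In it 13 of 32 genes were higher (40.6%) and 18 lower (56.2%), with a median of -0.27 that was 0.01 with library size alone. PUT4, a permease for proline, rose from 11.15 and 8.91 CPM to 169 and 177 CPM (4.11, SE 0.13). For phosphate, zinc, iron and copper, 16 of 45 were higher (35.6%) and 19 lower (42.2%), near the shares of all genes (median -0.07, and 0.21 with library size alone), with PHO89, a sodium-phosphate symporter, rising from 2.32 and 2.97 CPM to 66.7 and 63.8 CPM (4.60, SE 0.17).

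The cell wall list was mostly lower, 44 of 60 against 10 higher (median -0.58). CWP1, a mannoprotein of the birth scar, went against it, from 79.7 and 63.8 CPM to 871 and 885 CPM (3.61, SE 0.08). Eisosome genes, which shape furrows of the plasma membrane, were higher in 13 of 20 cases and lower in 2 (median 0.75), with FMP45, of the Sur7 family, at 18.1 and 16.0 CPM before and 469 and 493 CPM after (4.82, SE 0.08), and PIL1, the core protein, at 427 and 416 CPM before and 1035 and 1037 CPM after (1.30, SE 0.05). Ergosterol genes were lower in 22 of 33 cases and higher in 5 (median -0.47), led by ERG11, the lanosterol demethylase, at 1084 and 1093 CPM before and 336 and 333 CPM after (-1.70, SE 0.05). Fatty acid and phospholipid synthesis had 17 of 33 genes higher (51.5%, against 37.8% of all genes) and 11 lower (33.3%, against 37%), with a median of 0.20. INO1, the enzyme that makes inositol, rose from 30.2 and 29.7 CPM to 277 and 251 CPM (3.13, SE 0.09).

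Genes of meiosis and sporulation, which haploid MATa cells do not use, were higher in 38 of 53 cases (71.7%, against 37.8% of all genes). They were lower in 5 (9.43%, against 37%), with a median of 0.92, and 25 were at least 2-fold higher (13.1% of all genes were). SPS100, a spore wall gene, went from 8.60 and 10.3 CPM to 399 and 401 CPM (5.40, SE 0.09, adjusted p = 4.4e-20). CDA2, a chitin deacetylase of the spore wall, had 4 reads at 0 h and 104 at 2 h, a ratio of 17.5 (6.63 to 65.4). The regulators of the program, named after their values were seen, were not all part of this. IME1, its master activator, stood at 16.0 and 18.7 CPM before and 23.3 and 20.4 CPM after (0.30, adjusted p = 0.089), and NDT80, which drives the middle genes, at 43.7 and 41.1 CPM before and 37.4 and 36.1 CPM after (-0.22, adjusted p = 0.053). IME2, the kinase between them, rose from 22.3 and 19.9 CPM to 73.0 and 65.8 CPM (1.70, adjusted p = 5.3e-11).

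Most mating genes of the MATa type fell. Of 7 such genes 6 were lower (85.7%, against 37% of all genes) and 0 higher (against 37.8%), with a median of -1.48. MFA1 fell from 439 and 295 CPM to 40.8 and 50.6 CPM (-2.96, SE 0.17, adjusted p = 3.1e-12), and MFA2 from 434 and 324 CPM to 42.9 and 64.9 CPM (-2.73, SE 0.15). The controls of the 2 series differed in both genes by more than in most. STE2 fell to 360 and 352 CPM (-1.48, SE 0.05), BAR1, the protease that destroys alpha factor, from 251 and 247 CPM to 93.1 and 93.3 CPM (-1.42, SE 0.06), and AGA2, an agglutinin subunit, from 56.0 and 48.0 CPM to 15.7 and 18.3 CPM (-1.57, SE 0.14). ASG7 was not called (0.26, adjusted p = 0.18).

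Of 5 genes of the opposite mating type, 2 were higher (40%, near the 37.8% of all genes) and 0 lower (against 37%), with a median of 0.11. STE3, the a-factor receptor that MATalpha cells make, went from 9.99 and 11.2 CPM to 48.4 and 43.2 CPM (2.09, SE 0.14, adjusted p = 5.9e-11). MF(ALPHA)1, an alpha factor gene, had 8 reads at 0 h and 164 at 2 h, a ratio of 13.8 (6.84 to 32.5). MF(ALPHA)2 (-0.03, adjusted p = 0.91), SAG1 (-0.19, adjusted p = 0.050) and AFB1 (0.11, adjusted p = 0.37) were not called. In STE3 the stressed libraries lay above both controls, but the libraries of the 2 times did not overlap in 85.9% of all genes tested. Whether other cells contributed to these levels was not tested.

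The 1.5 h libraries were the nearest time to 2 h and were used to ask what had moved in the last 30 min. Of 5943 genes, 1485 differed (25%), 923 higher (15.5%) and 562 lower (9.46%) at 2 h, but 1 was at least 2-fold higher (0.0168%) and 6 at least 2-fold lower (0.101%). The count rested on the 2 h library of series b more than on others, with 861 genes changed without it, and DESeq2's Wald test called 766. With library size alone the calls were 699 higher and 722 lower, 49.2% rises against 62.2%, and with the 4 libraries alone 750 and 672.

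Most osmostress genes were lower than 30 min before. Of 38, 25 were lower than at 1.5 h and 3 higher (median -0.23 against 0.02 over all genes), and 13 of 20 hydrophilin genes were lower and 1 higher (median -0.27). GPD1 stood at 4862 and 4811 CPM at 1.5 h and fell to the 2 h values above (-0.72, SE 0.04, adjusted p = 2.1e-09). STL1 fell from 1987 and 2017 CPM (-0.52, SE 0.05, adjusted p = 5.5e-07), and MPC3 from 788 and 795 CPM (-0.82, adjusted p = 1.5e-08). HSP12, at 7385 and 6924 CPM at 1.5 h, did not pass the test (-0.10, adjusted p = 0.17). EMI2, a hexokinase-like gene, fell from 667 and 643 CPM to 388 and 374 CPM (-0.78, adjusted p = 4.8e-09) and was still above its 0 h level (0.99). Reserve sugar genes were lower in 9 of 24 cases (37.5%, against 9.46% of all genes) and higher in 2 (median -0.12). Methionine genes were lower in 13 of 31 (41.9%) and higher in 1 (median -0.19).

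Most ribosomal protein and ribosome assembly genes were higher than 30 min before. Of the 138 genes of the ribosomal protein list 100 were higher than at 1.5 h and 0 lower (median 0.31), as were 44 of 70 for 40S assembly (median 0.29) and 52 of 78 for 60S assembly (median 0.32), with 0 lower in both. NSR1, the yeast nucleolin, was at 101 and 104 CPM at 1.5 h and at 185 and 197 CPM at 2 h (0.90, SE 0.06, adjusted p = 7.2e-09), still below 639 and 613 CPM at 0 h. NOG1 rose from 68.8 and 73.5 CPM at 1.5 h (0.87, adjusted p = 8.1e-08) and DBP2 from 73.4 and 72.5 CPM (0.57). In glycolysis and fermentation 16 of 27 genes were higher and 6 lower (median 0.32), and in translation factors 23 of 44 were higher and 1 lower (median 0.15). The other growth lists varied. Over all genes 15.5% were higher and 9.46% lower. Of 34 purine and pyrimidine genes 13 were higher (38.2%) and 1 lower (2.94%), and of 20 tRNA synthetase genes 9 were higher (45%) and 0 lower. Of 68 amino acid biosynthesis genes 15 were higher (22.1%) and 11 lower (16.2%). In the mitochondrial ribosome list of 93, 1 was higher (1.08%) and 5 lower (5.38%). Of 24 regulators of ribosomal genes 3 were higher (12.5%) and 2 lower (8.33%), near the shares of all genes.

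Histone genes went the other way. All 8 were lower at 2 h than at 1.5 h (median -0.32), with HTA1 at 584 and 566 CPM at 1.5 h (-0.36, SE 0.05, adjusted p = 7.0e-05). Proteasome genes were near their 1.5 h levels, with a median of 0.04. Of 41, 3 were higher (7.32%, against 15.5% of all genes) and 1 lower (2.44%, against 9.46%).

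**Figure D5:**
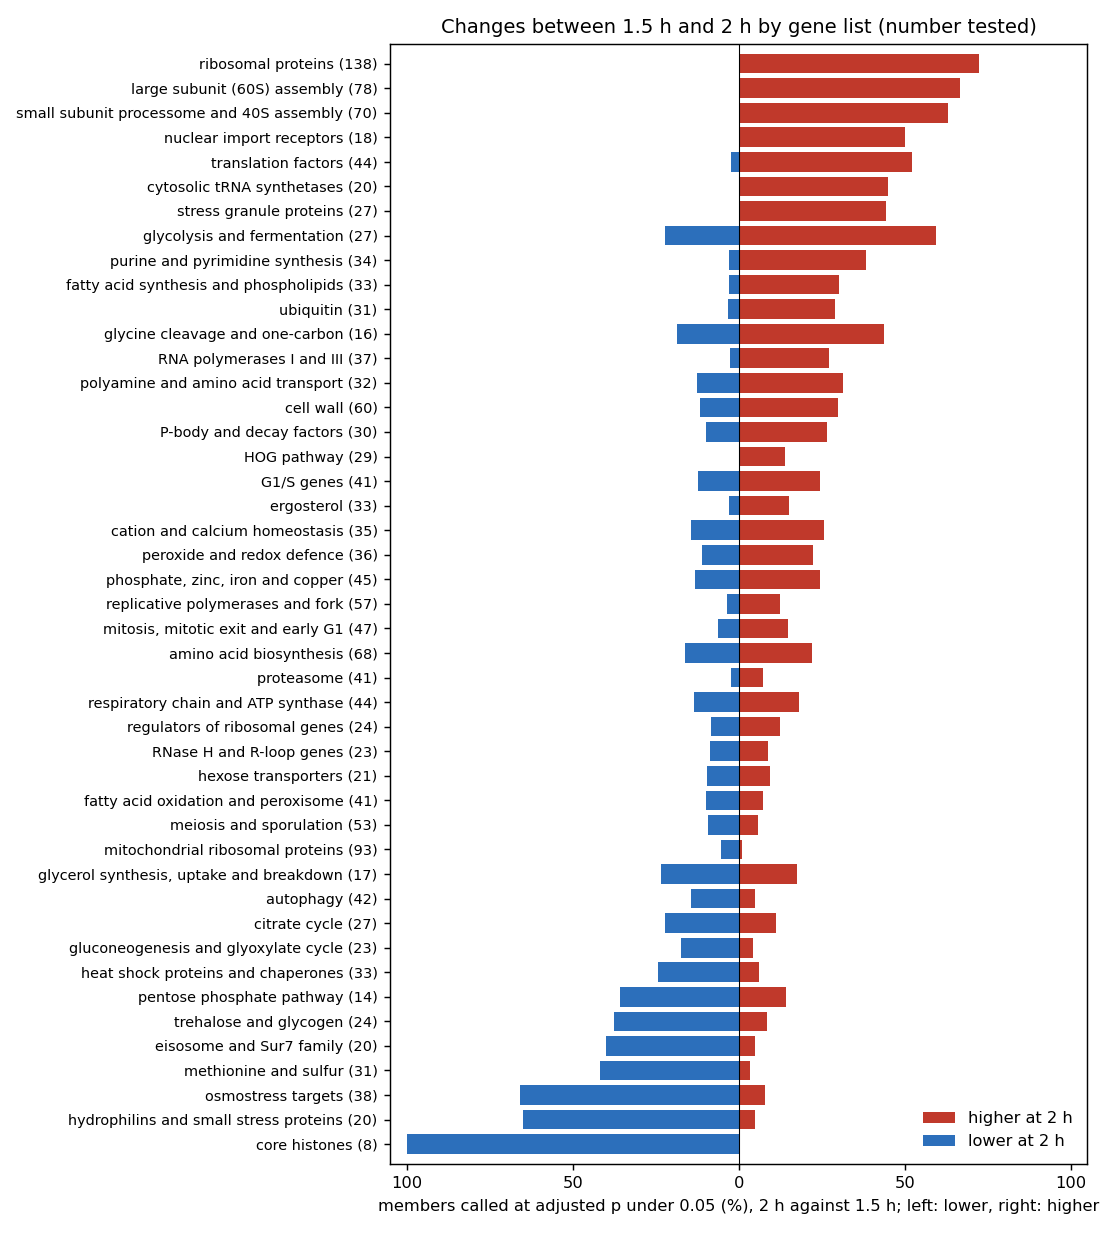
Share of the members of each gene list that differed between 2 h and 1.5 h. The horizontal axis is the percent of tested members called higher at 2 h (to the right of 0) or lower (to the left), from edgeR's quasi-likelihood test. Ribosomal proteins and assembly genes lie wholly to the right, and core histones wholly to the left.

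The largest rise of the last 30 min was NCA3, a SUN family gene, which stood at 121 and 100 CPM at 1.5 h and 262 and 251 CPM at 2 h (1.23, SE 0.07, adjusted p = 2.1e-09), above its 0 h values of 218 and 200 CPM. YRO2, a membrane protein of the Hsp30 family, rose from 188 and 208 CPM to 395 and 369 CPM (0.94, SE 0.06, adjusted p = 4.9e-09), and BSC1 from 15.9 and 19.4 CPM to 39.0 and 33.1 CPM (0.96, adjusted p = 9.2e-06). The small genes MIN10 (0.97, adjusted p = 0.0011) and YGL188C-A (0.95, adjusted p = 0.0022) had at most 19.6 CPM, and MIN10 was not called without the 2 h library of series b (0.83, adjusted p = 0.056).

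Among the falls, ZPS1, a wall protein induced when zinc is short, went from 378 and 393 CPM to 214 and 193 CPM (-0.94, SE 0.06, adjusted p = 2.1e-09). HUG1, a small inhibitor of ribonucleotide reductase, stood at 12.3 and 13.5 CPM at 1.5 h and at 3.92 and 9.26 CPM at 2 h (-0.80, adjusted p = 0.035), a call lost when either 1.5 h library or the 2 h library of series a was left out (adjusted p = 0.07 to 0.23). YLR157C-C and YLR156C-A, frames with near-identical copies, were called lower (-1.89 and -1.73). Their 1.5 h values of 55.9 and 10.7 CPM and of 53.0 and 11.1 CPM were set by series a, and without that library the changes were -0.42 (adjusted p = 0.68) and -0.36 (adjusted p = 0.66).

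The same lists were compared with the earlier times of the course. Against 0.5 h, 4801 genes differed (80.8%), 2571 higher (43.3%) and 2230 lower (37.5%). All 138 genes of the ribosomal protein list were lower at 2 h than at 0.5 h (median -1.56 against 0.07 over all genes), 37 of 38 osmostress genes were higher (median 3.46), and all 41 proteasome genes were higher (median 1.01). Against 1 h, 4106 genes differed (69.1%), 2086 higher (35.1%) and 2020 lower (34%). There 27 of 38 osmostress genes were higher and 4 lower (median 0.51), 136 of the 138 were lower (median -1.07), and 39 of 41 proteasome genes were higher (median 0.78). GPD1 had already been at 4605 and 4555 CPM at 1 h and was lower at 2 h (-0.64, adjusted p = 1.1e-10), while HSP12, at 2660 and 2593 CPM at 1 h, was higher (1.35, adjusted p = 1.3e-14).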

How the data were processed

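The deposited table gave a read count per library and coding sequence, named raw in its header. Of these counts, as deposited by the authors, 2.77% ended in 0.5, so they were handled as estimated counts and rounded to whole numbers. R64 is the genome build per the submitters' processing notes. Aligner, counting tool and strandedness were not given in the sources used here. From 65885 lines, 1302 gene and mRNA lines and 4693 identical repeats were left out, which leaves 5989 coding sequences in 10 libraries (206 overlap another coding sequence).

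All 10 libraries were fitted with edgeR 4.0.16 (quasi-likelihood test, time group as the only term, filterByExpr, TMM factors of 0.9248 and 0.9358 at 0 h and 1.1339 and 1.1315 at 2 h). The filter left out 46 coding sequences and kept 5943. The biological coefficient of variation was 4.05%. Replicates of a time differed by more than counting error (chi-square per degree of freedom 1.94 to 3.08). Counting intervals are exact at 95% and, like the floor of 3 reads, cover counting error only. Gene lists are described by counts and medians, with no test of a list. In simulated counts over 5929 genes for 2 h against 0 h, with 50 genes changed at each size, the test recovered 66% of 1.25-fold and 86% of 1.5-fold changes, and 100% of 2-fold and 4-fold changes. It called 6 unchanged genes. The simulated counts had the same spread in every gene, and as many rises as falls, all among genes that were not rare. Far fewer genes changed in them than were called in the data, so these rates may not hold for the real comparison.

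Members and lists were chosen with earlier results of these data known. Genes were named by a rule, 218 in all: the 12 largest rises and falls against 0 h and the 6 largest against 1.5 h among called genes whose libraries did not overlap, and whose higher mean reached 10 CPM; up to 4 called members of each of 49 lists; the genes of the series title and RNase H2; 6 osmostress markers; and all genes of the label and ribosomal RNA lists. Others are marked as named after their values were seen. Promoters of 5984 coding sequences were read from the R64 reference genome (RefSeq) by the table's coordinates, 5981 of which matched its annotation exactly.

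The letters a and b could pair libraries. Over 5613 genes, which are not independent replicates, the deviations of libraries from their time means correlated at -0.113 (Pearson) between 2 h and 0 h and at 0.0035 between 2 h and 1.5 h. Alternatives were DESeq2 1.42.0, other scalings, no filter, other samples, a replicate block, features left out, and each library left out in turn. Software was Python 3.11.15 (numpy 2.4.6, pandas 2.3.3, scipy 1.17.1, matplotlib 3.10.9) and R 4.3.3 (limma 3.58.1).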

Additional observations from a re-analysis of the deposited data

Results flagged for a closer look

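NCA3, a SUN family gene, was called lower than 0 h at 1.5 h (-0.94) and higher than 0 h at 2 h (0.29), and the test between these times gave a log2 change of 1.23 (SE 0.07, edgeR adjusted p = 2.1e-09), higher at 2 h in both series. ZPS1, the zinc-regulated wall protein gene, was called higher than 0 h at 1.5 h (0.72) and lower than 0 h at 2 h, and the test between the times gave -0.94 (SE 0.06, edgeR adjusted p = 2.1e-09), lower at 2 h in both series. The fall of ZPS1 against 0 h at 2 h was small (-0.21, adjusted p = 0.0032) and turned with library size alone (0.07, adjusted p = 0.29).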

How the results depend on the processing

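Over the settings tried, the count of genes changed at 2 h against 0 h ranged from 3966 (DESeq2's Wald test) to 4716 (library size alone), and from 4015 to 4275 when a library was left out. Library size alone cut the genes at least 2-fold lower from 602 to 332. The letters of the libraries share only a time series, and with the replicate block the counts were 4458 at 2 h against 0 h and 1616 at 2 h against 1.5 h; with crossed letters, an alternative added after the data were seen, 4481 and 1618. Against 1.5 h, DESeq2's Wald test called 766 genes (465 higher, 301 lower, 0 at least 2-fold lower) and gave no adjusted p for 1153. With 1 library left out, that comparison gave 861 to 1065 changed genes, 557 to 670 higher and 304 to 395 lower, 2 to 4 at least 2-fold higher and 2 to 8 at least 2-fold lower; the smallest counts changed, higher and lower came without the 2 h library of series b, and 371 were lower without the 1.5 h library of series b. The cause was not tested.

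With library size alone the median over all genes moved from 0.01 to 0.29, and medians changed sign for the citrate cycle (0.20), replication fork (0.15), RNase H and R-loop (0.0722), cation (0.17), polyamine and amino acid transport (0.0111) and phosphate, zinc, iron and copper (0.21) lists, as did ZPS1 (0.0709); the P-body median ranged from -0.0136 to 0.0513 when a library was left out. Of 5948 values of named genes under the alternatives, in both comparisons, 5729 kept their side of the threshold, and 174 lost and 44 gained a call. The remaining 1 changed direction with a call in at least 1 of the fits. Values called in neither fit count among the 5729 even where their direction changed. At 2 h against 0 h a loss of call concerned POL32, HOG1, MIN10, HUG1 and ZPS1. Depth limits genes with few reads at 0 h, whose fold is known only to its counting interval. The comparisons of 2 h with 1 h and 0.5 h were computed with the reported settings alone. Leaving RPP1 out of the ribosomal protein list, and the MRX genes, MRP8 and YMR31 out of the mitochondrial one, was chosen after the data were seen.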

Other observations

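Genes outside the lists changed too; those given here were named after their values were seen. ALD4, the mitochondrial aldehyde dehydrogenase, went from 111 and 114 CPM to 1834 and 1868 CPM (log2 fold change 4.04), YML131W, a reductase-like gene, from 18.8 and 10.7 CPM to 577 and 566 CPM (5.27), and PHM7, a membrane protein gene, from 23.7 and 20.6 CPM to 644 and 674 CPM (4.90). In the other direction, SSB1 and SSB2, the near-identical Hsp70 genes of the ribosome, fell from 3603 and 3399 CPM to 679 and 701 CPM (-2.34) and from 2690 and 2445 CPM to 625 and 624 CPM (-2.04). YHB1, the flavohemoglobin that detoxifies nitric oxide, fell from 475 and 476 CPM to 103 and 92.2 CPM (-2.30), and GLT1, the glutamate synthase, from 827 and 863 CPM to 219 and 214 CPM (-1.97). GCN4, the activator of amino acid synthesis genes and a member of that list, fell from 1561 and 1545 CPM to 626 and 629 CPM (-1.31).

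Another 4 called genes had 0 reads in both unstressed libraries. ECM23 had 64 reads at 2 h, at least 14.4-fold higher when the 0 h group is set at a floor of 3 reads over the group, and RRT7 had 47 (at least 10.5-fold higher). PAU16 had 44 (at least 9.87-fold higher), and it belongs to a family of near-identical genes between which reads may be shared. YBL044W had 31 (at least 6.96-fold higher). Per kilobase of coding length the copper metallothionein genes CUP1-1 and CUP1-2, which are identical copies whose reads cannot be told apart, stood at ranks 8 and 9 at 0 h and at ranks 3 and 4 at 2 h.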
